A study of Homo sapiens with 4 samples.

Results

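Of the 13155 H3K27me3 peaks called in HaCaT cells cultured with AKBA, 201 measured 2000 bp or more and under 5000 bp and shared no base with any of the 8890 peaks called with the solvent DMSO. These wide AKBA-only peaks were chosen by their called width and by the absence of overlap, out of 22045 peaks in both lists together. HaCaT cells are immortalised human keratinocytes, and the cultures lasted 12 hours, per the labels. AKBA is the usual short name of an acetylated keto-boswellic acid from frankincense resin, which the labels do not spell out. No dose is stated in the labels. Each condition had 1 H3K27me3 library and 1 library of input DNA, so the 4 samples all come from the same cell line, and peaks were called separately for each H3K27me3 library.

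H3K27me3 stands for histone H3 trimethylated at lysine 27. It is written by Polycomb repressive complex 2, whose catalytic subunit is EZH1 or EZH2, and it is removed by the demethylases KDM6A and KDM6B. The mark can spread from sites of recruitment into broad stretches, and in keratinocytes it is known for holding differentiation and developmental genes silent. A called peak is a stretch where reads passed the threshold of the peak caller, so a broad marked stretch can appear as several peaks with spaces between them, and absence from a list does not show absence of the mark.

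No difference below has a replicate check, and no test across libraries was possible, because each condition had 1 library. Intervals given for shares are exact 95% binomial (Clopper-Pearson) intervals, and those given for medians are 95% intervals from ranked values. Both cover counting error only and treat peaks as independent. The sequencing depth is unknown, because peak lists hold no read numbers. Regions are named by position in hg19, the build in the submitters' processing notes. An hg19 genome and gene annotation were not used here, so genes, exons, introns and sequences at these peaks were not analysed here.

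Absence from the DMSO list is what chose these peaks, so their numbers describe the choice. Among the 1605 AKBA peaks of 2000 to 4999 bp, 12.5% were AKBA-only, whereas 67.8% of AKBA peaks of all widths were. The other 1404 of that width overlapped at least 1 DMSO peak. In the DMSO list 45.5% of all peaks, but only 0.781% of those of 2000 to 4999 bp, 6 of 768, had no AKBA overlap. The narrowest AKBA peak measured 214 bp and the narrowest DMSO peak 160 bp, a ratio of 1.34. Whether widths of 2000 to 4999 bp differ by the same ratio was not tested. With DMSO widths multiplied by 1.34, a choice made after seeing the data, 22 of 1134 DMSO peaks (1.94%) had no AKBA overlap. Neighbouring AKBA peaks were at least 857 bp apart and neighbouring DMSO peaks at least 641 bp, a difference that this setting did not adjust. The 201 peaks covered 518.8 kb of the 14.7 Mb covered by all AKBA peaks. All DMSO peaks covered 7.57 Mb, so a DMSO peak had more called sequence of the other list to meet than an AKBA peak had. How much of the contrast between 12.5% and 0.781% goes with this difference was not tested. The number depends on the limits, at 86 peaks with a minimum of 2500 bp and 306 with a score of at least 3 required in both lists.

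Most of the 201 peaks lay near the lower width limit. Widths ran from 2000 to 4660 bp with a median of 2419 bp, and the middle of the distribution, between the quartiles, spanned 2150 to 2841 bp. In the whole AKBA list these widths stood between the 86.0th and the 97.8th percentile. Of the AKBA peaks of 2000 to 2499 bp, 21.6% were AKBA-only (115 of 533), and the share was 12.0% at 2500 to 2999 bp, 6.51% at 3000 to 3999 bp and 3.43% at 4000 to 4999 bp. The last class held 7 AKBA-only peaks. A longer peak has more bases that can meet a DMSO peak, so the rule itself favours narrower members. Whether the share falls by more than that was not tested. Just inside the width limit were a 2000-bp peak at chr1:61487139-61489138 and a 2007-bp peak at chr20:45073343-45075349. Just outside it, AKBA-only peaks of 1997 bp at chr9:136354093-136356089 and 1994 bp at chr16:89048703-89050696 were left out. Beyond the upper limit there were 2 AKBA-only peaks, of 5419 bp at chr19:30723976-30729394 and of 5725 bp at chr7:24549361-24555085. At the limit of overlap, the closest member was 42 bp from a DMSO peak, and the excluded peak with the smallest overlap, at chr12:85672211-85674329, shared 13 bp with one.

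The authors' score, 1 value per peak on a scale the files do not state, was in the middle range of the AKBA list for these peaks. It ran from 2.22 to 5.22 with a median of 3.09 (interval 2.99 to 3.25), against a median of 4.60 (4.51 to 4.72) for the 1404 equally wide peaks with a DMSO overlap and 2.73 for the 8722 AKBA-only peaks narrower than 2000 bp. The median member stood at the 53.9th percentile of all AKBA scores, and the median of the wide peaks with a DMSO overlap at the 85.8th. Only 7 of the 201 exceeded the median score of the wide peaks with a DMSO overlap. The gap in score was present at each width. At 2000 to 2499 bp the medians were 3.06 for AKBA-only peaks and 4.30 for the others, and at 4000 to 4999 bp they were 3.25 and 5.06. Ranking the 1605 peaks by score, 34.7% of the lowest 401 were AKBA-only (139 peaks), then 12.2% and 3.24% of the next groups of 401, and 0 of the highest 402, which allows a share of up to 0.913%. Across the 201 peaks the score did not go up with width (Spearman's rho -0.0019), while across the 1404 peaks with a DMSO overlap rho was 0.199. The members had narrower ranges, with quartiles of width at 2150 and 2841 bp and scores up to 5.22. For the 1404 peaks these were 2403 and 3566 bp and 12.9, so the values of rho are not directly comparable. These correlations are across peaks of 1 library, which are not independent, and describe that library only.

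**Figure D1:**
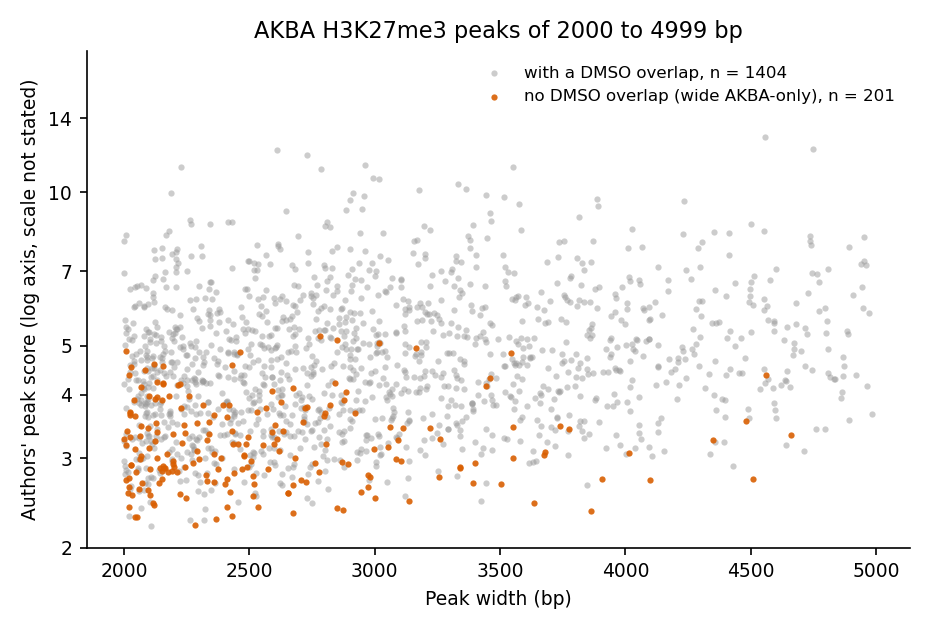
Width in bp (x axis) against the authors' score (y axis, log scale) for the 1605 AKBA peaks of 2000 to 4999 bp. Each point is a peak, orange for the 201 without a DMSO overlap and grey for the 1404 with one. The orange points end at a score of 5.22 and are densest below 2500 bp.

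The 5 highest-scoring members differed in their surroundings. The top one, chr7:100821022-100823804, had a width of 2783 bp and a score of 5.22, and it lay 2906 bp from an AKBA peak of 5446 bp that overlapped a DMSO peak. The nearest DMSO peak was 2967 bp away on that same side, and on the other side none was called for 118.9 kb. The second, chr20:62796577-62799425, with a score of 5.14, had a DMSO peak of 271 bp at 447 bp on one side and another at 2779 bp on the other. The third, chr8:24770306-24773323, with a width of 3018 bp and a score of 5.07, was 40.0 kb from the nearest DMSO peak and 14.5 kb from the nearest AKBA peak. At chr1:25944222-25947385, with a width of 3164 bp and a score of 4.93, 4 other AKBA peaks and no DMSO peak lay within 50 kb. The fifth, chr20:45073343-45075349, scored 4.88 and was 960 bp from an AKBA peak of 338 bp and 12.3 kb from a DMSO peak. High-scoring members were thus found both beside and far from DMSO peaks.

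The 5 widest members had scores from 2.73 to 4.38 and, in 4 of the 5 cases, a DMSO peak within 5 kb. Over all members the share within 5 kb was 40.8% (82 of 201), and 5 peaks are too few to set against it. The widest, chr1:5825628-5830287, spanned 4660 bp with a score of 3.33. A DMSO peak of 160 bp, the narrowest width in that list, lay 813 bp beyond its end, and the nearest other AKBA peak was 35.6 kb away. The second, chr19:15086760-15091320, spanned 4561 bp with a score of 4.38, and was 29.9 kb from a DMSO peak and 30.0 kb from an AKBA peak. Next came chr7:43158841-43163349, of 4509 bp with a score of 2.73. It stood 4362 bp from a DMSO peak of 3495 bp that scored 5.29 in its own list. The peak at chr16:82369918-82374399 spanned 4482 bp and was 2228 bp from a DMSO peak of 177 bp, with 7 DMSO and 6 other AKBA peaks within 50 kb. The fifth, chr14:100373362-100377712, spanned 4351 bp and began 1130 bp after a DMSO peak of 741 bp. None of these 5 had an AKBA neighbour within 1 kb, and the smallest space between any 2 peaks of the AKBA list was 857 bp.

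In the lists as deposited, wide AKBA-only peaks lay closer to DMSO peaks than narrower AKBA-only peaks did. Set against wide AKBA peaks with a DMSO overlap and their next DMSO peak, the intervals of the median gap and of the share within 10 kb overlapped, whereas those of the share within 100 kb did not. The gap to the nearest DMSO peak ran from 42 bp to 1235.6 kb with a median of 9.19 kb (5.57 to 14.5 kb). For the AKBA-only peaks narrower than 2000 bp the median was 20.6 kb (19.6 to 21.9 kb). A DMSO peak lay within 10 kb of 105 of the 201 (52.2%, interval 45.1 to 59.3%), beside 37.6% of AKBA-only peaks of all widths and 37.3% (36.3 to 38.3%) of the narrower ones. For the wide peaks with a DMSO overlap, counting only DMSO peaks they did not overlap, the median gap was 12.3 kb (9.95 to 14.8 kb) and the share within 10 kb 47.4% (44.8 to 50.1%). Within 100 kb a DMSO peak was found for 84.6% of members (78.8 to 89.3%) and 74.1% (71.7 to 76.3%) of the wide peaks with a DMSO overlap, and the upper quartiles of the gap were 50.1 and 108.5 kb. The members' median gap was 13.9 kb without the 27 that had a DMSO peak within 1 kb. It was 19.3 kb with a score of at least 3 in both lists, a setting that changes both the members and the DMSO peaks. The gaps of the narrower AKBA-only peaks were not recomputed in these settings.

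By distance, 27 members had a DMSO peak within 1 kb, 55 between 1 and 5 kb, 23 between 5 and 10 kb, 45 between 10 and 50 kb, 20 between 50 and 100 kb, and 31 had none within 100 kb. The median score went from 3.36 in the nearest class to 3.09 in the farthest and the median width from 2393 to 2366 bp, so members far from DMSO peaks were about as wide as those beside them and scored slightly lower. Among narrower AKBA-only peaks the corresponding median scores were 2.94 and 2.67.

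Other AKBA peaks were also near. The gap to the nearest one ran from 870 bp to 1251.0 kb with a median of 4.85 kb (3.55 to 6.90 kb), against 11.2 kb (10.6 to 11.7 kb) for narrower AKBA-only peaks and 5.62 kb (4.84 to 7.14 kb) for the wide peaks with a DMSO overlap. Within 10 kb, 125 members (62.2%, 55.1 to 68.9%) had another AKBA peak, beside 48.3% of AKBA-only peaks of all widths. For the wide peaks with a DMSO overlap the share was 57.1% (54.5 to 59.7%), an interval that overlapped that of the members. In 128 of the 201 cases the nearest AKBA peak was itself a narrower AKBA-only peak, in 7 it was another member, and in 66 (32.8%) it overlapped a DMSO peak, a share close to the 32.2% of all AKBA peaks that do. AKBA and DMSO neighbours went together. Among the 27 members with a DMSO peak within 1 kb, 85.2% had an AKBA neighbour within 10 kb. Among the 31 with none within 100 kb, 16.1% did. The same pattern was found for narrower AKBA-only peaks, at 73.4% and 17.2%, so it was not particular to the members.

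**Figure D2:**
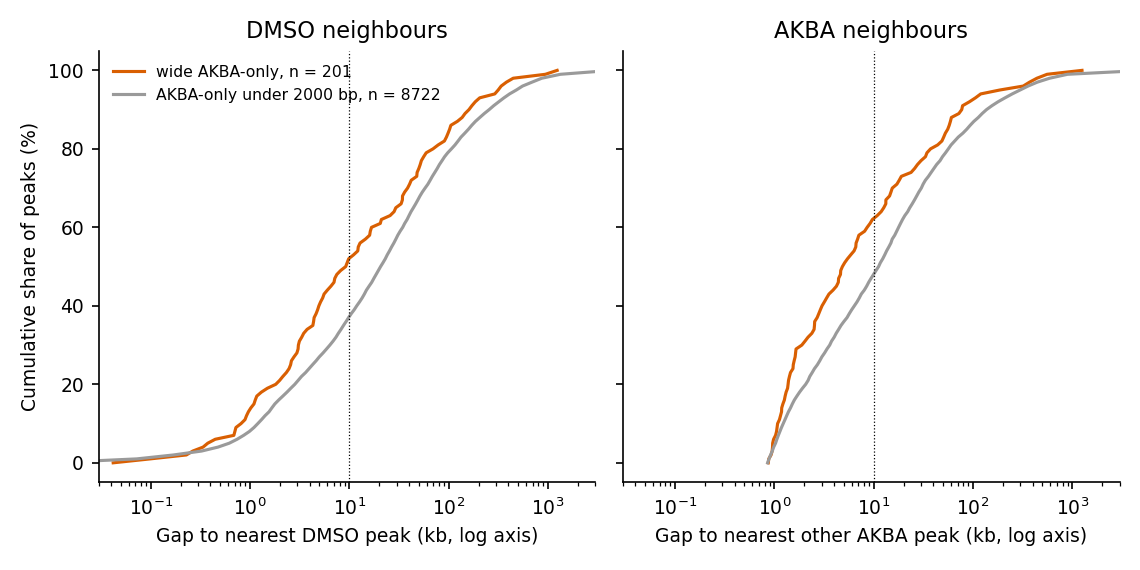
Cumulative share of peaks (y axis, percent) by the gap to the nearest DMSO peak (left) or to the nearest other AKBA peak (right), in kb on log axes, for the 201 wide AKBA-only peaks (orange) and the 8722 AKBA-only peaks under 2000 bp (grey). The dotted line marks 10 kb, where the orange curves stand at 52.2% and 62.2%, above the grey ones, and no AKBA gap is under 0.857 kb.

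Taking both lists at 10 kb, 88 members had both a DMSO and another AKBA peak, 37 had an AKBA peak alone, 17 a DMSO peak alone, and 59 (29.4%, 23.2 to 36.2%) had neither. For narrower AKBA-only peaks 44.0% (42.9 to 45.0%) had neither, and for wide AKBA peaks with a DMSO overlap 36.1% (33.6 to 38.7%). A DMSO peak on both sides within 10 kb was found for 24 members (11.9%, 7.80 to 17.2%). The share was 12.3% (10.6 to 14.1%) for wide AKBA peaks with a DMSO overlap, counting only DMSO peaks they did not overlap. For narrower AKBA-only peaks it was 6.97% (6.45 to 7.53%). The DMSO peaks on either side were 2148 to 19935 bp apart in these 24 places, with a median of 9.27 kb, and the member filled a median of 25.3% of that space. In 3 places it filled more than 50%. At chr4:8868301-8870308 a member of 2008 bp filled 93.5% of the 2148 bp between 2 DMSO peaks, leaving 91 bp on one side and 49 bp on the other. At chr4:147557970-147561061 a member of 3092 bp filled 60.0% of 5152 bp, and at chr9:137999814-138002057 one of 2244 bp filled 53.7% of 4182 bp. The smallest gap between peaks anywhere in the DMSO list was 641 bp.

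For 27 members a DMSO peak lay within 1 kb. The median width of those DMSO peaks was 499 bp, near the 552.5 bp of the DMSO list as a whole. Of these 27 DMSO peaks 1 reached 2000 bp, and 15 overlapped no AKBA peak, as did 45.5% of all DMSO peaks. Having no AKBA overlap, those 15 necessarily lay wholly in the space between the member and the next AKBA peak on that side. The closest pair was at chr17:75653155-75655179, a member of 2025 bp that began 42 bp after a DMSO peak of 3037 bp. That DMSO peak overlapped the preceding AKBA peak, of 2179 bp, which ended 1050 bp before the member. Others among the 5 closest were chr20:56134387-56136745 at 99 bp, chr3:123756153-123758196 at 126 bp and chr1:245397769-245400178 at 229 bp. Each of these followed or preceded a DMSO peak of 730 bp or less. Over all 201 members, the nearest DMSO peaks resembled the DMSO list as a whole, with median widths of 547 bp for these neighbours and 552.5 bp for the list and median scores of 3.04 and 3.02. Of these neighbours 50.2% (43.1 to 57.4%) overlapped an AKBA peak, and of all DMSO peaks 54.5% did.

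**Figure D3:**
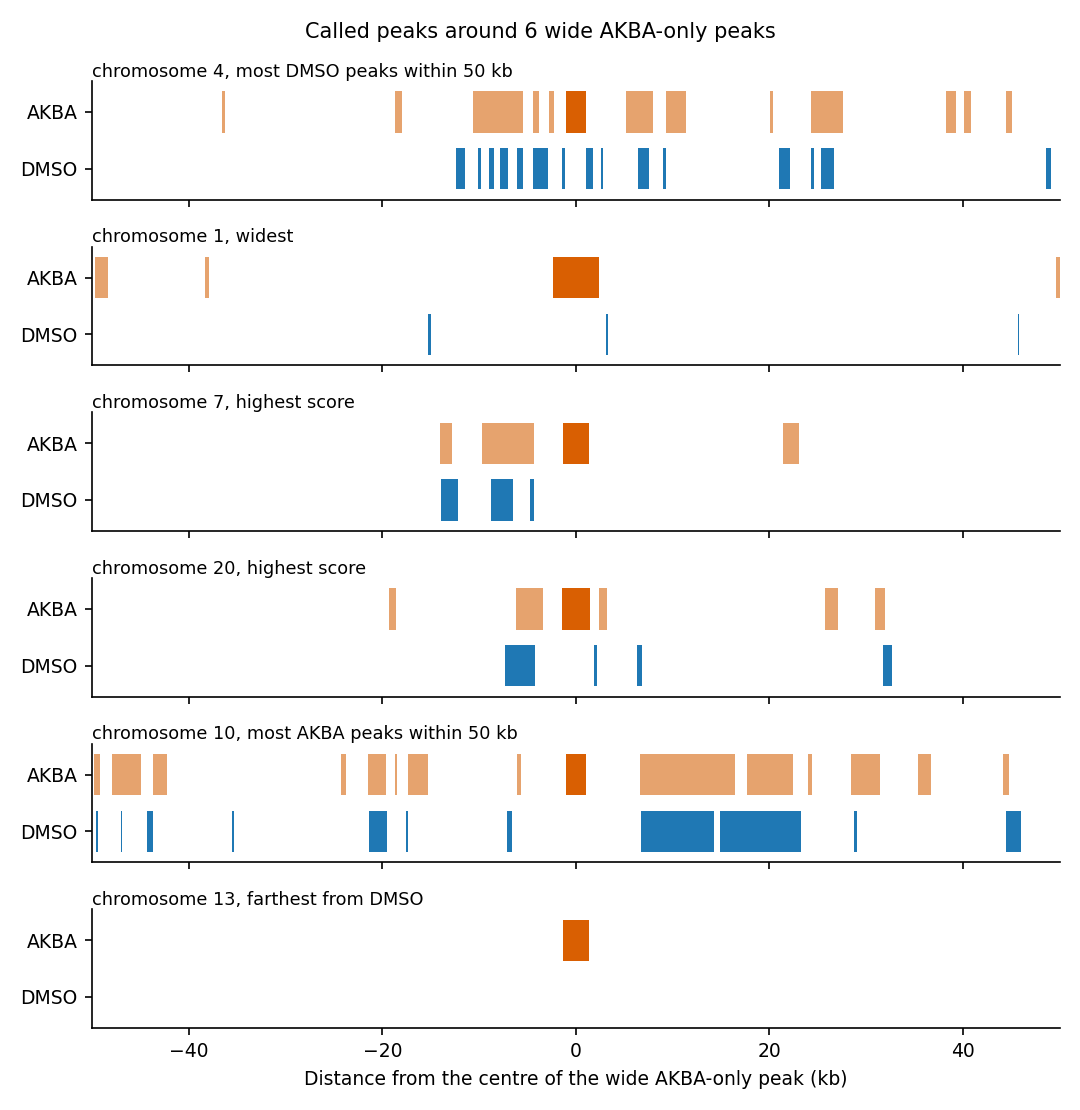
Called peaks within 50 kb of the centres of 6 wide AKBA-only peaks, with distance in kb on the x axis, AKBA peaks in the upper and DMSO peaks in the lower row of each panel. The member is dark orange, other AKBA peaks are light orange and DMSO peaks blue, and the surroundings range from 15 DMSO peaks on chromosome 4 to none on chromosome 13.

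The members with the most DMSO or the most AKBA peaks within 50 kb were picked by those counts. Crowding in the list that was counted therefore follows from the choice. The chromosome 4 member described above had 15 DMSO and 12 other AKBA peaks within 50 kb. Within 50 kb of chr1:2994338-2997882, of 3545 bp with a score of 4.83, there were 14 DMSO and 10 other AKBA peaks, which covered 12.6 kb in the DMSO list and, with the member, 28.1 kb in the AKBA list. The member at chr9:137999814-138002057 had 13 DMSO and 12 other AKBA peaks around it. The greatest number of AKBA neighbours, 15, was at chr10:102489431-102491554, where 32.9 kb lay in AKBA peaks and 21.5 kb in DMSO peaks. At chr16:82540813-82543276, with a score of 4.85, 14 AKBA neighbours stood beside 5 DMSO peaks. DMSO peaks covered only 2.17 kb there, and AKBA peaks, with the member, 10.2 kb. At chr9:138230603-138234700, of 4098 bp, 13 AKBA neighbours stood beside 11 DMSO peaks.

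Called sequence was denser around the members than around narrower AKBA-only peaks, in both lists. In the 5 kb on either side of a member, DMSO peaks covered 4.29% of bases and AKBA peaks 7.95%, against 2.52% and 4.45% beside narrower AKBA-only peaks. Between 50 and 100 kb away the values were 1.62% and 3.56% beside members and 1.20% and 2.48% beside the narrower peaks. AKBA over DMSO bases came to 1.85 in the nearest 5 kb, 1.63 from 5 to 10 kb, 2.08 from 10 to 50 kb and 2.20 from 50 to 100 kb, around the ratio of 1.94 for the lists as a whole. The ratio in the nearest 5 kb cannot be set directly against that of the lists. AKBA peaks were at least 857 bp apart, and by the choice of members no DMSO peak crossed a member's edge. In the first 1 kb coverage was 0.217% AKBA and 2.31% DMSO, both limited in this way, so neither low value is a finding about the surroundings. In the next 4 steps of 1 kb it was 10.1, 11.3, 9.07 and 9.03% AKBA, and 4.53, 4.07, 5.51 and 5.02% DMSO. Beyond 5 kb the ratio lay on both sides of the 1.94. Beside the wide peaks with a DMSO overlap, DMSO coverage in the nearest 5 kb was 6.89%, which includes the ends of the overlapping DMSO peaks, and AKBA coverage was 8.23%.

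**Figure D4:**
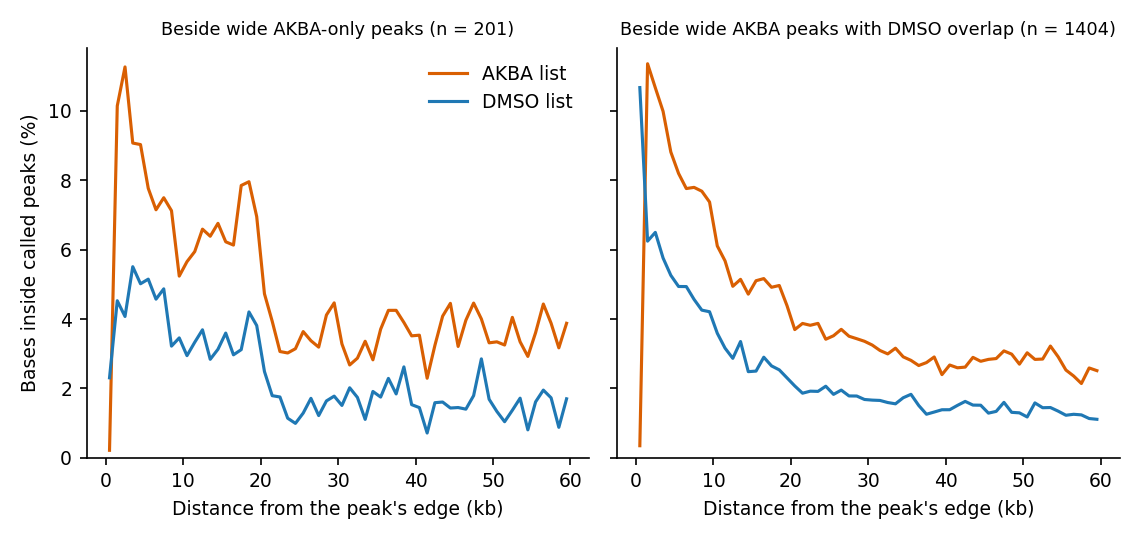
Share of bases inside called peaks (y axis, percent) by distance from the edge of the peak in steps of 1 kb (x axis), on both sides together, for the 201 wide AKBA-only peaks (left) and the 1404 wide AKBA peaks with a DMSO overlap (right). AKBA coverage is orange and DMSO coverage blue. Beside the wide AKBA-only peaks both are low in the first step (0.217% AKBA, 2.31% DMSO), highest within 5 kb (11.3% and 5.51%) and lower beyond 20 kb, with a second rise near 18 kb. AKBA peaks were at least 857 bp apart, and by the choice of members no DMSO peak crosses their edges, which limits both values in the first step.

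At the other end, 31 members on 17 chromosomes had no DMSO peak within 100 kb. Their widths ran from 2012 to 3164 bp and their scores from 2.22 to 4.93. Of these, 18 had another AKBA peak within 100 kb and 13 had no peak of either list. Those 13 were 6.47% of all members (3.49 to 10.8%). The share was 10.1% (9.51 to 10.8%) for narrower AKBA-only peaks. For wide AKBA peaks with a DMSO overlap it was 14.8% (13.0 to 16.8%), leaving out the DMSO peaks they overlapped. Such isolation was thus less frequent among members than in either group, though the members' interval reached that of the narrower peaks. The member farthest from any DMSO peak was chr13:93878408-93881033, of 2626 bp with a score of 3.87. It was 1235.6 kb from a DMSO peak and 1251.0 kb from an AKBA peak. Next were chr1:234019333-234021361, of 2029 bp with a score of 4.54, at 1077.7 kb from a DMSO peak and 18.1 kb from an AKBA peak, and chr3:136537271-136539308, at 939.9 and 556.6 kb. The member at chr6:138481494-138483505 lay 549.7 kb from a DMSO peak and 555.5 kb from an AKBA peak, and chr11:10696175-10698190 lay 446.1 and 28.3 kb from them. No called peak of either condition marked the surroundings of the members on chromosomes 13, 3 and 6 within 100 kb.

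Members were spread over 22 of the 23 chromosomes with peaks, the autosomes and X. Chromosome 1 held 20, chromosome 9 held 15, chromosomes 17 and 20 held 14 each and chromosome 12 held 13, while chromosome 22 held 0 of its 18 AKBA peaks of 2000 to 4999 bp. As a share of the AKBA peaks of that width the highest values were 20.0% on chromosome 16 (9 of 45, interval 9.58 to 34.6%) and 17.6% on chromosome 12 (13 of 74, 9.70 to 28.2%). Chromosome 3 had 5.17% (3 of 58, 1.08 to 14.4%). The interval of each of the 23 chromosomes included the overall 12.5%, so no chromosome stood apart beyond counting error. Per 10 Mb of the span between the first and last peak, chromosome 20 held 2.23 members and chromosome 17 held 1.73, and chromosome X held 0.135.

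**Figure D5:**
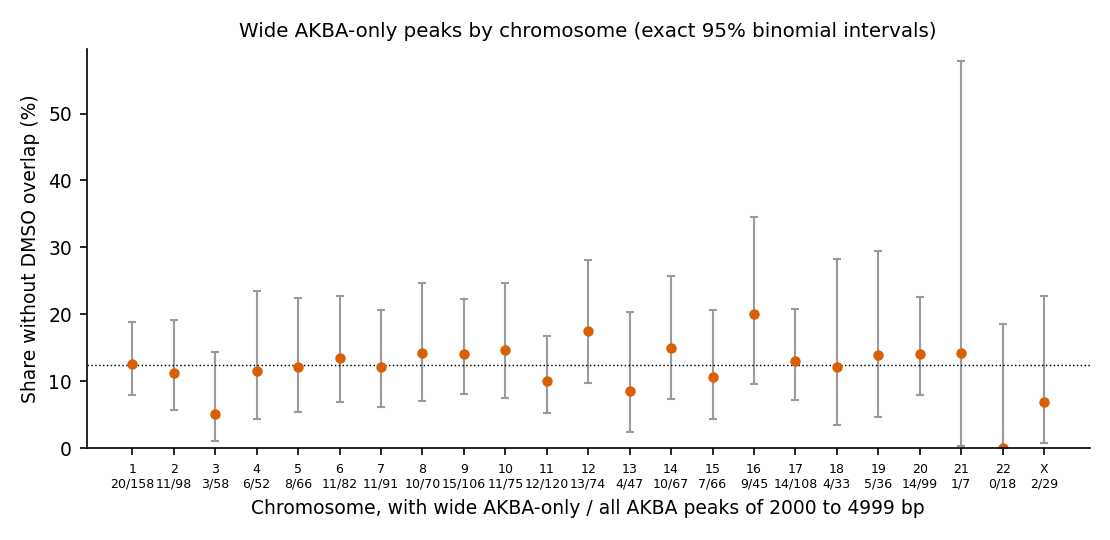
Share of AKBA peaks of 2000 to 4999 bp without a DMSO overlap (y axis, percent) on each chromosome (x axis, with the number of wide AKBA-only peaks and of all AKBA peaks of that width below). Points are shares, bars exact 95% binomial intervals that cover counting error only, and each bar includes the dotted line at 12.5%.

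Members were more often near the outer ends of the marked part of a chromosome than wide AKBA peaks with a DMSO overlap or narrower AKBA-only peaks were, the 2 groups they were set against. Within 5 Mb of the first or last peak of either list on their chromosome lay 62 members (30.8%, 24.5 to 37.7%), 19.9% (17.8 to 22.1%) of the wide peaks with a DMSO overlap and 21.5% (20.6 to 22.3%) of narrower AKBA-only peaks. The members near the first peak numbered 26 and those near the last 36. Chromosome 12 contributed 8, chromosome 1 contributed 7 and chromosome 9 contributed 6. On chromosomes with a short arm free of peaks the first peak is not near the chromosome's end. The members in these outer stretches were nearer to other AKBA peaks, with a median gap of 3.35 kb against 6.62 kb elsewhere, but not to DMSO peaks, with 9.14 against 9.19 kb. The intervals treat neighbouring peaks as independent, which they are not, and no test across libraries was possible.

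In windows of 1 Mb, 165 held a member, and 26 of these held 2 or more, together 62 members. The fullest windows held 4 members each, on chromosome 9 between 138 and 139 Mb and on chromosome 17 between 77 and 78 Mb, where 56 and 72 AKBA peaks and 43 and 55 DMSO peaks were centred. Windows with 3 members were found on chromosome 1 between 2 and 3, 3 and 4, and 18 and 19 Mb, on chromosome 6 between 168 and 169 Mb, on chromosome 12 between 2 and 3 Mb and on chromosome 16 between 82 and 83 Mb. The chromosome 6 window was the one among these 8 in which no AKBA peak of 2000 to 4999 bp overlapped a DMSO peak. Its members, chr6:168546382-168549934, chr6:168647257-168649434 and chr6:168719604-168721672, scored 3.00, 3.98 and 3.48 and were 42.0, 16.7 and 16.2 kb from the nearest DMSO peak. That window held 40 AKBA and 16 DMSO peaks in all.

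In 10 places 2 members lay within 50 kb of each other, and no run held more. The tightest pair was on chromosome 17, where chr17:77092320-77095118 and chr17:77096082-77098595 were 963 bp apart, with scores of 3.63 and 2.77, and the nearest DMSO peak was 11.0 kb away. On chromosome 1, chr1:18520084-18523720 of 3637 bp and chr1:18525177-18527898 of 2722 bp were 1456 bp apart and 4.42 kb from a DMSO peak. The chromosome 10 pair, chr10:118901689-118904690 and chr10:118916543-118920280, of 3002 and 3738 bp, had 1 DMSO and 2 AKBA peaks between them. On chromosome 6, chr6:39032372-39034687 and chr6:39052420-39055053 were 17.7 kb apart with 2 AKBA peaks and no DMSO peak in between. The pairs at chr11:132988580-132990989 and chr11:133024890-133027870, 33.9 kb apart, and at chr16:89056843-89059142 and chr16:89101870-89104023, 42.7 kb apart, had no called peak of either list between them. The other pairs were chr1:2877107-2879209 with chr1:2914735-2917064, chr1:3145237-3149010 with chr1:3165953-3167980, chr12:2620665-2623346 with chr12:2660840-2662966, and chr15:89305276-89307339 with chr15:89338881-89341011. These had 1 or 2 DMSO peaks and 1 to 3 AKBA peaks between the members.

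The 6 DMSO-only peaks of the same width measured 2049 to 2454 bp. The highest-scoring of them, chr16:50581278-50583731, had a score of 4.53 in its list and was 268 bp from an AKBA peak. At chr15:93000261-93002319 the gap was 192 bp, at chr20:47028889-47031194 it was 1195 bp, at chr9:136168024-136170072 it was 9.03 kb and at chr17:72518686-72520838 it was 36.4 kb. The sixth, chr18:18518019-18520420, was 1152.7 kb from the nearest AKBA peak. An AKBA peak stood within 2 kb in 3 of these 6 places, a limit not used for the members. The share over all DMSO peaks is not given here, so this count describes these 6 peaks only.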

How the data were processed

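H3K27me3 chromatin immunoprecipitation sequencing of HaCaT cells gave 1 deposited peak list per condition. Per the submitters' processing notes the build was hg19 and the tools were BWA, STAR and MACS2. No source used here gives versions, the threshold, the use of the input, the treatment of duplicates or filters. The lists that the authors deposited hold positions and 1 score per peak, whose scale is not stated, so scores were ranked within a list only. The setting with a score of at least 3 in both lists assumes 1 scale. Depth is unknown.

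Members, overlaps (at least 1 bp) and gaps (bases between 2 peaks) were computed with pandas 2.3.3, scipy 1.17.1 and numpy 2.4.6 under Python 3.11.15, and the number of members was checked against bedtools 2.31.1. On simulated data, 400 moved peaks matched direct comparison and 200 of 200 placed gaps were recovered. Coordinates are 1-based. No peak was given a gene or sequence, because the tables at hand are of another build, GRCh38.p14. The gene lists planned for such an annotation were not run. The members and lists were chosen with earlier results of these data known. Regions named were the 5 widest, highest-scoring, farthest from and closest to DMSO peaks, the 3 with most AKBA and most DMSO peaks within 50 kb, runs of members within 50 kb, peaks at the limits and wide DMSO-only peaks. Members in the fullest windows and those filling most of a space between DMSO peaks were chosen after their values were seen. Other limits of width, overlap, score, peak number and joining were tried, and 2 settings were added after seeing the data.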

Additional observations from a re-analysis of the deposited data

How the results depend on the processing

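Of 43 recomputed values, 29 stayed within the interval of the reported value or, for the number of peaks, within 1.5 times of it, and 14 did not. A minimum width of 2500 bp gave 86 peaks, 8.02% of the AKBA peaks in those limits. Leaving out peaks with a DMSO peak within 1 kb lowered the share of the width class to 10.8% and the share with a DMSO peak within 10 kb to 44.8%, as it must by construction. A score of at least 3 in both lists gave 306 peaks, 21.5% of the width class, with a DMSO peak within 10 kb of 37.3% and another AKBA peak within 10 kb of 43.5%, a median gap to the nearest DMSO peak of 19.3 kb and a median score of 3.67. It removes DMSO peaks that would have overlapped. The 8890 highest-scoring peaks of each list gave 53.8% with an AKBA neighbour within 10 kb and a median score of 3.25. Joining peaks across gaps of up to 1 kb gave 14.7% of the width class. DMSO widths multiplied by 1.34 gave 1.94% of DMSO peaks without an AKBA overlap. Removing the upper limit, and leaving out peaks at the narrowest width, moved none of the 6 values computed for each. The neighbour distances of narrower AKBA-only peaks and of wide AKBA peaks with a DMSO overlap were not recomputed in these settings. Unknown depth and 1 library per condition limit each value.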

Other observations

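Some excluded AKBA peaks were near the limit of overlap. Of the 1404 AKBA peaks of 2000 to 4999 bp with a DMSO overlap, 64 shared under 10% of their width with DMSO peaks and 236 under 25%, and the median shared part was 55.8%. The 64 had a median score of 3.30, between the 3.09 of the wide AKBA-only peaks and the 4.60 of the peaks with any DMSO overlap. At chr4:8878618-8880714, a peak of 2097 bp shared 14 bp with a DMSO peak, and at chr10:102473119-102475216 a peak of 2098 bp also shared 14 bp.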
